A study of Mus musculus with 103 samples.

Results

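The ionotropic and metabotropic glutamate receptors of the adult mouse cortex were examined together with the proteins that hold them at the synapse. The 46 genes were taken from a list of receptor subunits (21 genes), auxiliary receptor proteins and pentraxins (8 genes) and postsynaptic scaffolds, neurogranin and kinases (17 genes). A total of 45 of the 46 genes had a transcript in the ribosome profiling (Riboseq) table, which holds 12719 transcripts. Cacng8 was not analysed here. A mean footprint value of at least 10 over the 4 mice was needed for a test, and 43 genes passed it. The kainate receptor gene Grik1 and the scaffold gene Homer3 did not pass.

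Riboseq reads the fragments of mRNA that ribosomes shield from a nuclease (footprints), and an RNA library of the same tissue gives the amount of each mRNA. Both were made from adult cortex of 4 mice that carried a floxed allele of Nsun2, the gene of a tRNA cytosine methyltransferase. The 2 KO mice were Camk2a-Cre positive and homozygous for the floxed allele. The 2 WT mice were Camk2a-Cre negative. The paper's controls were homozygous or heterozygous for that allele, and which of these the 2 WT mice were is not stated. Cre driven by the Camk2a promoter deletes exon 6 of Nsun2 in excitatory neurons of the forebrain, so that inhibitory neurons and glia keep the gene. All values below come from whole cortex, where fewer cells of a type and less RNA per cell cannot be told apart. The question put to these data was whether the loss of Nsun2 goes with altered mRNA levels, ribosome occupancy or translational efficiency (footprints relative to RNA) of synaptic genes.

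Glutamate is the main excitatory transmitter of the cortex. AMPA receptors carry the fast current, NMDA receptors pass calcium when the membrane is already depolarised, kainate receptors tune release and excitability, and metabotropic receptors act through G proteins. On the receiving side they sit in the postsynaptic density, a protein mesh built by MAGUK, SAPAP, SHANK and HOMER scaffolds and rich in the kinase CaMKII. Neurogranin (Nrgn) is a small protein of dendritic spines that binds calmodulin at low calcium.

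Nsun2 methylates several tRNAs, among them tRNAs for glycine, so the glycine codons of the members are shown first. Nrgn is the member with the largest share of them, and its whole coding sequence is printed below without the stop codon. It was read from the transcript ENSMUST00000065668 of GENCODE vM21 (GRCm38, minus strand, chr9:37544492-37552904, 4 exons). Capitals mark glycine codons, which make up 18 of its 78 codons, 7 of them GGA, 9 GGC, 2 GGG and 0 GGT.
Nrgn: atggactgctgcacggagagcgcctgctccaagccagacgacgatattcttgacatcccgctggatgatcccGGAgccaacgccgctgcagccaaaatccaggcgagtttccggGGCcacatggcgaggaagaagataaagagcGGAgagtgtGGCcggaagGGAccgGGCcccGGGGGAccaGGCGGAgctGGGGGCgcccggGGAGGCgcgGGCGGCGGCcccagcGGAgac
The glycine share of Nrgn was 23.1%, above that of 99.9% of the transcripts tested, and its GGA share was 8.97%. Among the other members the glycine share ran from 2.50% in Cnih2, which has no GGA codon, to 11.2% in Shank1.

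Among the receptor subunits, the 4 AMPA subunits had the largest GGA shares, with 3.09% in Gria1, 3.28% in Gria2, 2.48% in Gria3 and 3.77% in Gria4, against a median of 1.51% over all transcripts tested. For each subunit, the run of 30 codons (90 bases) with the most glycine codons is shown with those codons in capitals. The genes lie at chr11:57011810-57330244 (plus strand), chr3:80681450-80802835 (minus strand), chrX:41401304-41678601 (plus strand) and chr9:4417899-4796234 (minus strand) of GRCm38.
Gria1, codons 848 to 877: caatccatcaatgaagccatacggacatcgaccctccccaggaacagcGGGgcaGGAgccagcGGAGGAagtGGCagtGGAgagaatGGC
Gria2, codons 794 to 823: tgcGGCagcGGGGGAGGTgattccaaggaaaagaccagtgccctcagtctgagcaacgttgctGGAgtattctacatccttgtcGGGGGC
Gria3, codons 2 to 31: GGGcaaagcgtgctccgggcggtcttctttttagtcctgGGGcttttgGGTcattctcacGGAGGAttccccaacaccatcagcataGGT
Gria4, codons 795 to 824: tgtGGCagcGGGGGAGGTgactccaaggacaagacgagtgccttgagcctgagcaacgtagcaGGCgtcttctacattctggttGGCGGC
The windows of Gria1, Gria2 and Gria4 held 7 glycine codons each and that of Gria3 held 6. Those of Gria2 and Gria4 cover the same stretch of the family and share 75 of 90 bases.

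The 12719 transcripts held 10465003 to 13174377 RNA reads per mouse, if 1 step of the scaled values is 1 read. The depth behind the footprints is unknown. The targeted gene followed the labels. Nsun2 RNA was 1292 and 1120 in WT and 362 and 368 in KO, and its footprints were 130 and 114 in WT and 30.4 and 23.0 in KO. Excitatory neuron markers were measured for 13 of 14 listed genes, with summed RNA of 55373 to 57113 per mouse, most of it from Rorb (32930 to 35060). Of these 13 markers, 7 had a negative fold change in RNA and 10 in footprints, and 0 were called by limma (0 at an unadjusted p under 0.05). The 12 inhibitory neuron markers were higher in sum in KO, with RNA of 9680 and 10062 in WT and 12012 and 11532 in KO, and footprints of 2294 and 2315 in WT and 2565 and 2627 in KO. Pvalb, the parvalbumin of fast-spiking interneurons, rose by 0.76 in RNA (SE 0.13, adjusted p = 0.015, limma with Benjamini-Hochberg adjustment). Gad1 RNA was 2692 and 2264 in WT and 3115 and 3354 in KO. For Gad2 it was 1952 and 1919 in WT and 2570 and 2474 in KO. Of the 12 markers, 8 had a positive RNA fold change and 4 a negative one. Reln was the most negative, at -0.47 in RNA (SE 0.13) and -0.79 in footprints (SE 0.19), and was not called. Other sums differed between mice of one genotype. The 10 striatal markers summed to 4747 (WT mouse 1), 2601 (WT mouse 2), 2631 (KO mouse 1) and 4684 (KO mouse 2), and the 9 microglial markers found, of 10 listed, to 690, 1046, 724 and 573. All 9 microglial markers had negative fold changes in RNA and in footprints, with medians of -0.34 and -0.43. Of these markers, 1 was called lower in RNA (1.65% of all transcripts). Of 9 blood and vessel markers listed, the 4 tested were all haemoglobin genes, and each had a positive RNA fold change, with a median of 0.60. Of these 4, 1 was called higher in RNA (1.5% of all transcripts). It was Hba-a2, at 0.62 (SE 0.14, adjusted p = 0.041, limma with Benjamini-Hochberg adjustment). The 10 astrocyte markers summed to 25007, 31630, 27939 and 24834 in RNA. Among them 6 had a negative RNA fold change (median -0.05), and 1, Gfap, an intermediate filament, rose by 0.76 (SE 0.14, adjusted p = 0.020, limma with Benjamini-Hochberg adjustment). No marker found was at 0 in RNA in any mouse. The part of these markers in the results below was not tested.

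RNA values of the receptor subunits were lower in the KO cortex. All 20 tested subunits had a negative log2 fold change (KO against WT, on log2(value + 1)), with a median of -0.41 and a range from -0.71 to -0.18. In 19 of the 20, both KO mice lay below both WT mice, which happened for 21.6% of all 10674 transcripts tested. Only 1 subunit passed the adjusted threshold, as described below. Over all members, 2 transcripts fell in RNA (1.65% of all transcripts fell) and 0 rose (1.5% of all transcripts rose). At an unadjusted p under 0.05, 23 of the 43 members were lower and 0 higher (9.34% and 11.9% of all transcripts). Limma voom on the recovered RNA reads called 4 members lower and 0 higher (2.02% and 1.33% of all transcripts).

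**Figure D1:**
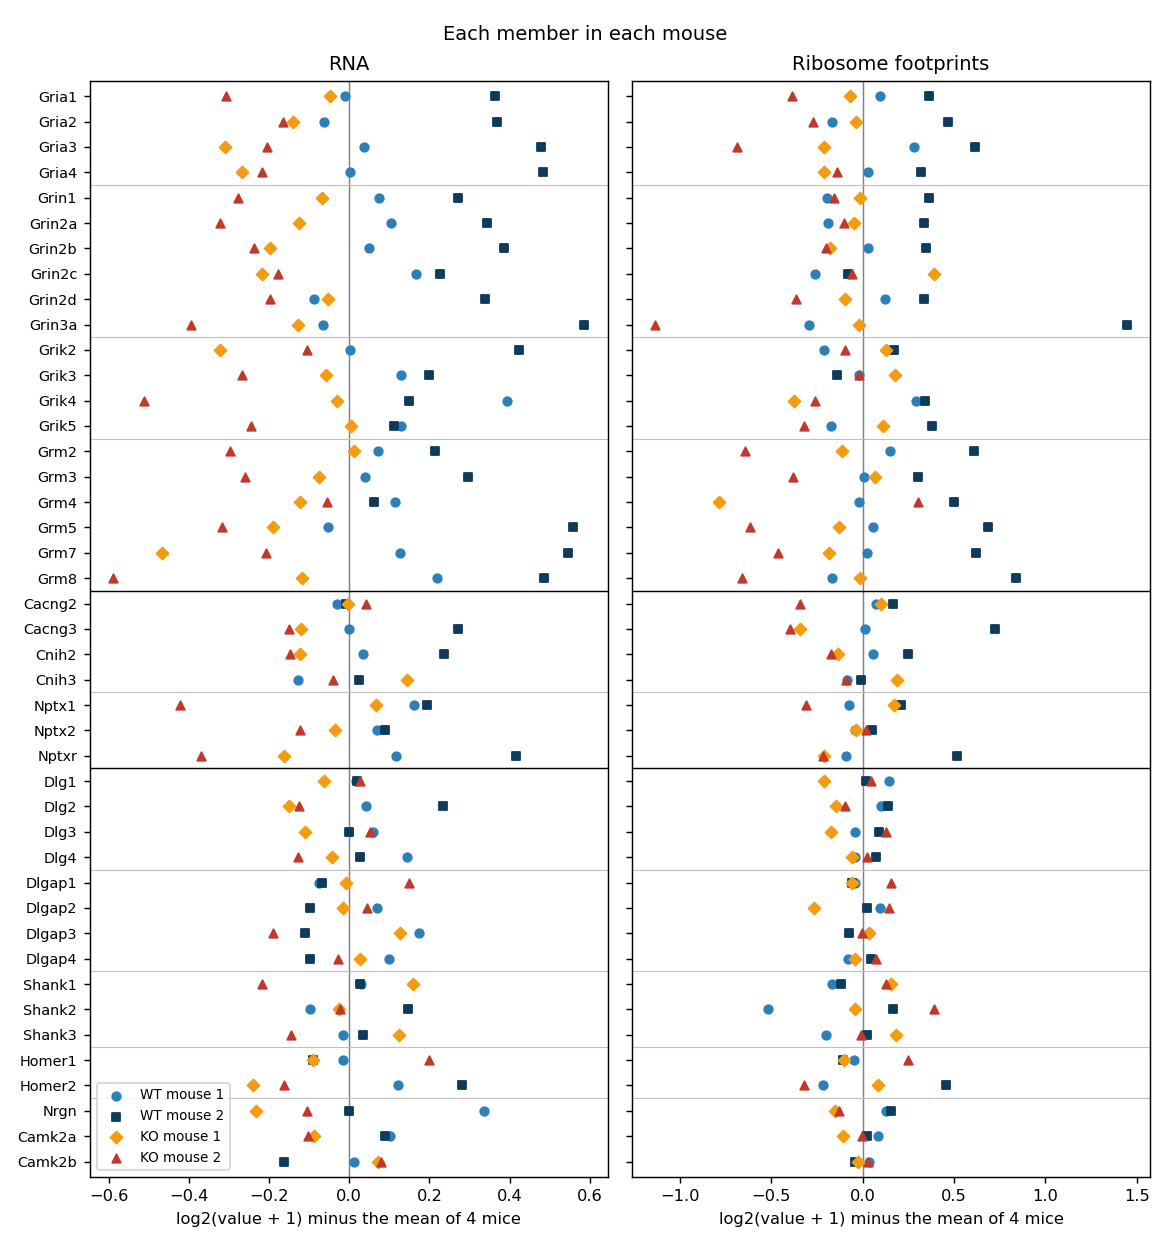
RNA (left) and footprint values (right) of the 43 tested members in each of the 4 mice, as log2(value + 1) minus the member's mean over the mice. Black lines separate receptor subunits, auxiliary proteins with pentraxins, and scaffolds with kinases. WT mouse 2 holds the highest RNA value in 17 of the 20 receptor rows and in 3 of the 16 scaffold and kinase rows.

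Among AMPA subunits, which form the pore of the fast receptor, RNA of Gria1 was 3231 and 4189 in WT and 3149 and 2629 in KO. Gria2, whose subunit keeps the channel from passing calcium, had RNA values of 4976 and 6706 in WT and 4711 and 4637 in KO. Both subunits kept their groups apart, by a narrow gap in Gria1, and neither passed the threshold, with log2 fold changes of -0.35 (SE 0.13) and -0.30 (SE 0.13). Gria3 RNA was 2195 and 2981 in WT and 1728 and 1857 in KO, and Gria4 RNA was 1110 and 1551 in WT and 921 and 955 in KO. Their log2 fold changes were -0.51 (SE 0.13) and -0.48 (SE 0.14), again short of the threshold (adjusted p = 0.063 and 0.091, limma with Benjamini-Hochberg adjustment).

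Gria3 was the member whose footprints fell. The transcript is ENSMUST00000076349 with 16 exons, and its footprint values were 220 and 278 in WT and 156 and 112 in KO, without overlap. The log2 fold change was -0.90 (SE 0.17, adjusted p = 0.025, limma with Benjamini-Hochberg adjustment; 2.20e-07 to 0.291 over the alternatives). It was no longer called without KO mouse 2, at -0.66 (adjusted p = 0.228), nor with a mean footprint of 50 or more (adjusted p = 0.063), and it stayed called with either WT mouse left out. Footprints of Gria1 were 186 and 223 in WT and 165 and 132 in KO, and those of Gria4 were 78.1 and 96.1 in WT and 66.0 and 69.6 in KO, both with the groups apart. Gria2 footprints overlapped, with 338 and 526 in WT and 370 and 315 in KO.

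Across all members, 1 fell in footprints (0.384% of all transcripts fell) and 0 rose (0.206% of all transcripts rose). At an unadjusted p under 0.05, 11 members were lower and 1, Shank1, was higher (6.89% and 5.89% of all transcripts). Of the 20 receptor subunits 17 had a negative footprint fold change, with a median of -0.42. Both KO mice were below both WT mice in 9 of the 20 (19.8% of all transcripts) and above in 2 of the 20 (22.8% of all transcripts), so the groups overlapped more often than in RNA.

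NMDA receptors pair the obligatory Grin1 subunit with Grin2 or Grin3 subunits. Grin1 RNA was 2081 and 2384 in WT and 1886 and 1630 in KO, a log2 fold change of -0.34 (SE 0.11). Grin2a, a subunit whose share grows as the cortex matures, had RNA of 1908 and 2252 in WT and 1628 and 1419 in KO. Grin2b, its partner from early development onward, had RNA of 11605 and 14660 in WT and 9775 and 9520 in KO. The log2 fold changes of Grin2a and Grin2b, -0.45 and -0.43 (SE 0.12 for both), came close to the threshold, with adjusted p = 0.061 and 0.066 by limma with Benjamini-Hochberg adjustment. In the voom fit both passed.

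Footprints of the NMDA subunits moved less evenly. Grin1 footprints were 445 and 657 in WT and 505 and 458 in KO, and those of Grin2a were 149 and 215 in WT and 164 and 158 in KO, so both overlapped. Without WT mouse 2 their footprint fold changes turned positive, at 0.11 for each. Grin2b footprints stayed apart, with 229 and 285 in WT and 198 and 195 in KO. The less abundant subunits lay at both ends of the range. Grin3a, which lowers calcium flow through the receptor, had footprints of 16.4 and 56.9 in WT and 20.0 and 8.70 in KO, and its fold change of -1.15 (SE 0.49) became -0.28 without WT mouse 2. Grin2c footprints were 14.4 and 16.5 in WT and 23.3 and 16.8 in KO, with both KO mice above WT. Grin2d had footprints of 8.81 to 14.9 in the 4 mice.

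**Figure D2:**
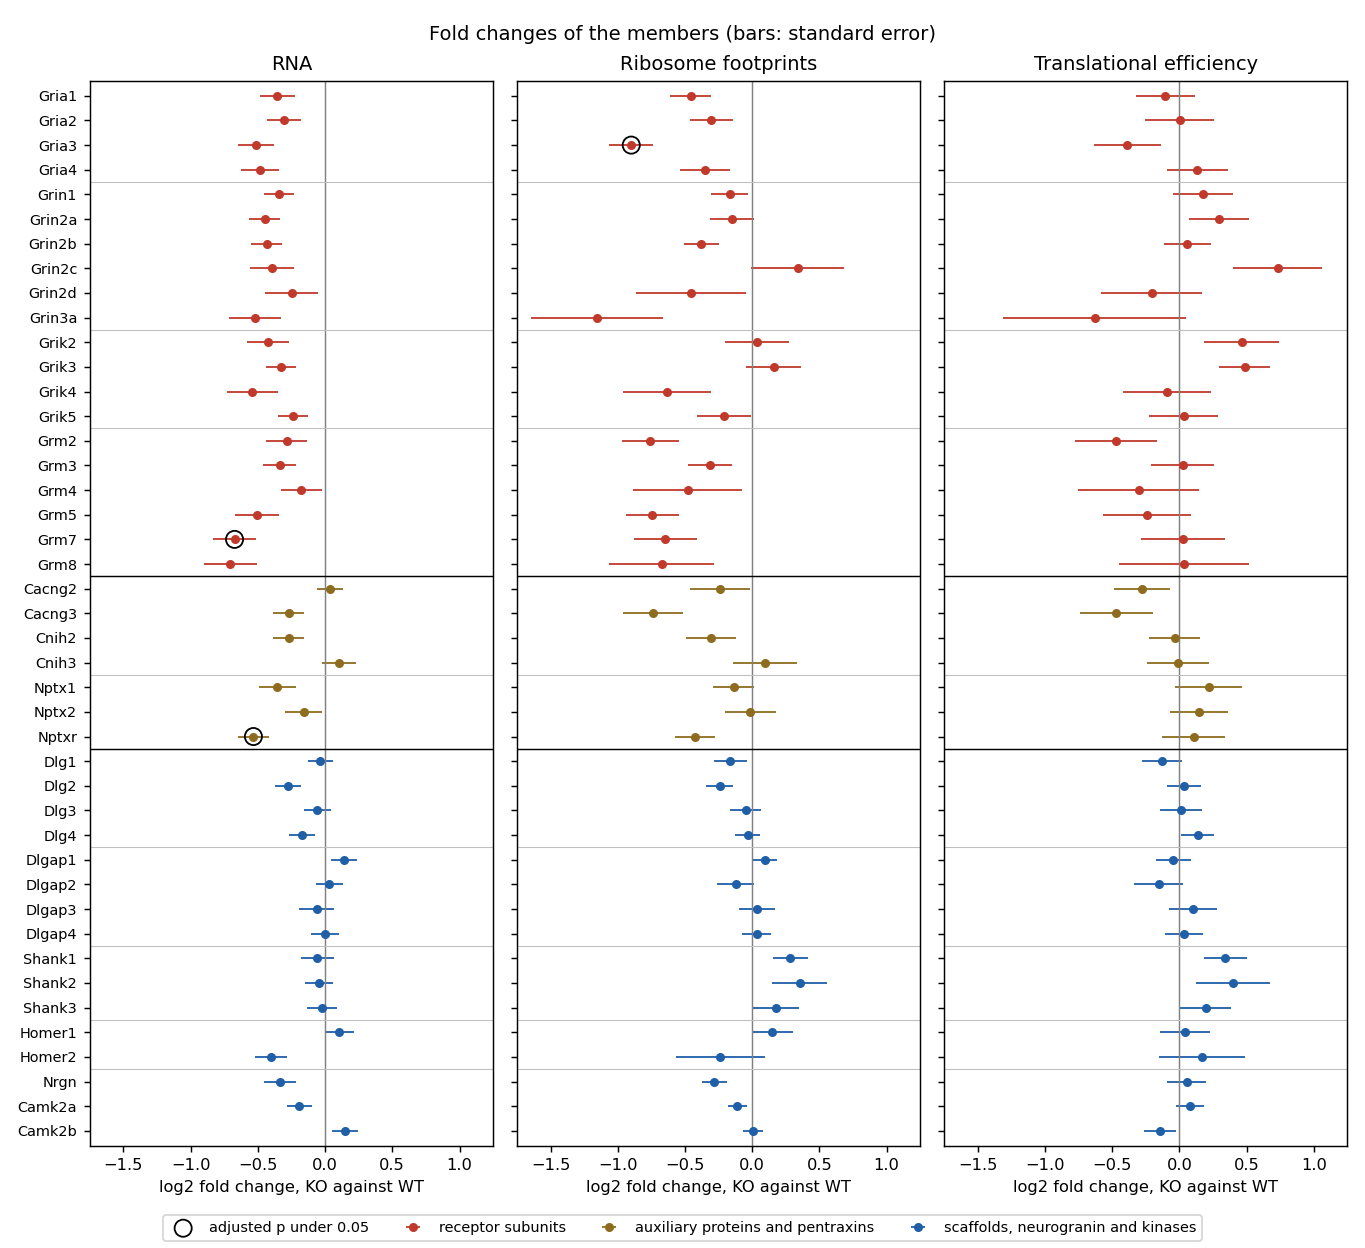
Log2 fold change of each tested member, KO against WT, in RNA, footprints and translational efficiency, with bars for 1 standard error and rings for adjusted p under 0.05. All 20 receptor subunits lie left of 0 in RNA, and the rings mark Grm7 and Nptxr in RNA and Gria3 in footprints.

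RNA values of the 4 tested kainate subunits were lower in KO, while their footprint fold changes had both signs. RNA of Grik4, a subunit that needs a partner to form a channel, was 216 and 182 in WT and 161 and 115 in KO (log2 fold change -0.54, SE 0.19). RNA of Grik2, which forms channels by itself, was 403 and 540 in WT and 321 and 374 in KO, and its footprints overlapped at 37.0 and 48.6 in WT and 47.1 and 40.2 in KO. Grik3 RNA was 1254 and 1316 in WT and 1102 and 953 in KO, and its footprints lay slightly above WT in KO, with 56.4 and 51.9 against 64.8 and 56.6. Grik5 RNA spanned 1289 to 1671, and Grik1, below the filter, had RNA of 125 and 163 in WT and 95.3 and 96.1 in KO.

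Grm7 was the receptor whose RNA fell. It codes for a presynaptic metabotropic receptor that restrains transmitter release (ENSMUST00000071076, GRCm38 chr6:110645581-111566067, 11 exons). Its RNA was 389 and 520 in WT and 257 and 308 in KO, a log2 fold change of -0.67 (SE 0.16, adjusted p = 0.047, limma with Benjamini-Hochberg adjustment; 0.000182 to 0.220 over the alternatives). The adjusted p was 0.220 without WT mouse 2 and 0.136 without KO mouse 1, so the call was lost in both. It was also lost after scaling to the column sum (0.060) and quantile normalization (0.053). Its footprints, 56.3 and 85.5 in WT and 48.5 and 39.9 in KO, were apart but not called. Grm8, a close relative, had RNA of 157 and 189 in WT and 124 and 89.3 in KO and the most negative RNA fold change of all members, -0.71 (SE 0.20).

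The other metabotropic genes lay on the same side. Grm5, the group I receptor that signals through phospholipase C and is tied to HOMER, had RNA of 868 and 1325 in WT and 789 and 722 in KO. Its footprints were 158 and 245 in WT and 139 and 99.0 in KO, a log2 fold change of -0.74 (SE 0.20). Grm2, a presynaptic autoreceptor, had footprints of 89.3 and 123 in WT and 74.3 and 51.1 in KO, with -0.76 (SE 0.21, adjusted p = 0.145, limma with Benjamini-Hochberg adjustment). Grm3 and Grm4 had RNA fold changes of -0.34 and -0.18. All 6 metabotropic genes tested had negative footprint fold changes, with a median of -0.66, and in 3 of them both KO mice were below both WT mice (19.8% of all transcripts).

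Among the 4 auxiliary proteins tested, both KO mice were below both WT mice in RNA in 2 and above in 1 (21.6% and 31.4% of all transcripts). TARPs (Cacng genes) and cornichons (Cnih genes) ride with AMPA receptors and shape their trafficking and gating. Cacng3 RNA was 1283 and 1550 in WT and 1180 and 1158 in KO, and its footprints were 74.2 and 122 in WT and 57.8 and 55.7 in KO (log2 fold change -0.74, SE 0.22). Cnih2, with RNA of 797 and 916 in WT and 714 and 701 in KO, was also apart. Cacng2, which codes for stargazin, had RNA of 1568 and 1591 in WT and 1597 and 1647 in KO. Both KO mice thus lay narrowly above WT, with a log2 fold change of 0.04 (SE 0.10). Cnih3 had an RNA fold change of 0.10 (SE 0.13).

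Pentraxins gather AMPA receptors from outside the cell. RNA of Nptxr, the membrane-bound pentraxin (ENSMUST00000175858, GRCm38 chr15:79786352-79804709, 5 exons), was 6054 and 7442 in WT and 4984 and 4318 in KO. It fell by 0.53 on the log2 scale (SE 0.12, adjusted p = 0.037, limma with Benjamini-Hochberg adjustment; 0.000198 to 0.175 over the alternatives). The adjusted p was 0.170 both without WT mouse 2 and without KO mouse 2, which ended the call. Nptxr footprints were 382 and 580 in WT and 351 and 349 in KO. Nptx1 RNA was 2264 and 2317 in WT and 2119 and 1512 in KO, and the activity-regulated Nptx2 had RNA of 219 to 254 and footprints of 64.1 to 68.3 in the 4 mice. Over the 7 tested auxiliary and pentraxin genes the median RNA fold change was -0.27, and in 5 of them both KO mice were below both WT mice (21.6% of all transcripts).

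The scaffolds and kinases stayed closer to 0. Their median RNA log2 fold change was -0.05 over 16 tested genes, with a range from -0.40 to 0.15, and 0 of them passed the threshold in RNA or footprints. At an unadjusted p under 0.05 they gave 3 lower genes of 16 in RNA (9.34% of all transcripts) and, in footprints, 2 lower and 1 higher (6.89% and 5.89% of all transcripts). Counted in both directions, 18.8% of them passed in RNA and in footprints, against 21.3% and 12.8% of all transcripts. Both KO mice were below both WT mice in RNA in 5 of the 16 (21.6% of all transcripts) and above in 2 of the 16 (31.4% of all transcripts). In footprints the corresponding counts were 3 of 16 and 1 of 16 (19.8% and 22.8% of all transcripts). The difference between receptors and scaffolds was not tested, since the genes of a group share the same 4 mice.

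Among the MAGUK scaffolds, Dlg4 (PSD-95), the most abundant member of the family, had RNA of 12962 and 11940 in WT and 11381 and 10742 in KO. Its footprints overlapped at 523 and 567 in WT and 517 and 547 in KO. Dlg2 (PSD-93) had RNA of 7147 and 8165 in WT and 6251 and 6358 in KO (-0.28, SE 0.10), with footprints of 402 and 411 in WT and 338 and 350 in KO. Dlg1 and Dlg3 had RNA fold changes of -0.04 and -0.06.

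SAPAP proteins link MAGUKs to SHANKs. Dlgap1 RNA was 7023 and 7053 in WT and 7358 and 8205 in KO, above WT in both KO mice without passing the threshold (0.14, SE 0.10), and the other 3 SAPAP genes had RNA fold changes between -0.06 and 0.03. The 3 SHANK genes, whose products form the deep layer of the density, had RNA fold changes of -0.06 (Shank1), -0.05 (Shank2) and -0.02 (Shank3), and all 3 changed sign when 1 mouse was left out. Their footprint fold changes were positive. Shank1 footprints were 159 and 165 in WT and 199 and 195 in KO (0.28, SE 0.13), Shank2 footprints 101 and 163 in WT and 141 and 191 in KO (0.35, SE 0.20), and Shank3 footprints 74.1 and 87.0 in WT and 97.1 and 84.7 in KO. The groups were apart for Shank1 alone. Without WT mouse 2, Shank2 was called higher, at 0.70 (adjusted p = 0.018, limma with Benjamini-Hochberg adjustment).

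HOMER proteins join group I metabotropic receptors to SHANK. Homer1 RNA was 3292 and 3125 in WT and 3124 and 3819 in KO, so the groups overlapped. The table holds 1 transcript of Homer1, and its short activity-induced form was not told apart. Homer2 RNA was 607 and 679 in WT and 472 and 498 in KO (-0.40, SE 0.12, adjusted p = 0.090, limma with Benjamini-Hochberg adjustment), the most negative among the scaffolds. Homer3, below the filter, had RNA of 52.8 to 76.5.

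Nrgn, the glycine-rich member printed above, had RNA of 40284 and 31892 in WT and 27170 and 29669 in KO, without overlap, and footprints of 476 and 484 in WT and 391 and 398 in KO, also without overlap. The log2 fold changes were -0.34 (SE 0.12) in RNA and -0.28 (SE 0.10) in footprints, with adjusted p = 0.146 and 0.238 by limma with Benjamini-Hochberg adjustment. RNA of Camk2a, the CaMKII subunit whose promoter drives Cre in these mice, was 30778 and 30503 in WT and 26978 and 26687 in KO (-0.19, SE 0.09). Camk2b RNA was 7628 and 6751 in WT and 7940 and 7986 in KO, above WT in both KO mice, while its footprints lay between 979 and 1032 in all 4 mice.

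WT mouse 2 stood apart for the receptors and for several other groups. It had the highest RNA of the 4 mice in 17 of 20 receptor subunits (24.6% of all transcripts). Its footprints were the highest in 18 of 20 (26.9% of all transcripts). Among scaffolds and kinases these counts were 3 and 4 of 16. They were 5 and 6 of the 7 auxiliary and pentraxin genes, and 7 and 8 of the 9 microglial markers. Of 57 other postsynaptic genes tested, they were 27 and 26. The median receptor deviated from its mean over the mice by 0.06 and 0.35 in the WT mice and by -0.12 and -0.25 in the KO mice in RNA, and by -0.01, 0.36, -0.06 and -0.29 in footprints. On these medians the WT mice differed from each other in RNA by more than WT mouse 1 differed from KO mouse 1. Without WT mouse 2 the 20 subunits still all had negative RNA fold changes, with a median of -0.24, and in 19 of 20 both KO mice were below WT mouse 1 (34.8% of all transcripts). In footprints 13 of 20 were then negative, with a median of -0.21. Of the members, 0 were called in RNA without WT mouse 2 (0.141% of all transcripts lower and 0.328% higher) and 11 were lower and 0 higher without WT mouse 1 (2.42% and 2.4%). In footprints 1 was lower (Gria3) and 1 higher (Shank2) without WT mouse 2 (0.731% and 0.543% of all transcripts), and 11 were lower and 0 higher without WT mouse 1 (3.58% and 1.56%).

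**Figure D3:**
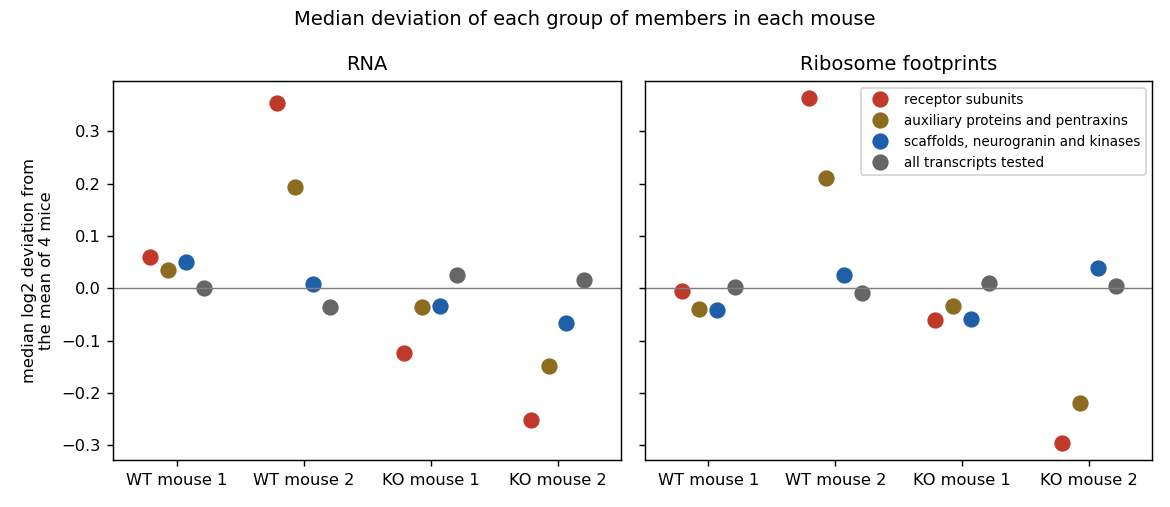
Median deviation, in log2 units, of receptor subunits (20 genes), auxiliary proteins and pentraxins (7 genes), scaffolds and kinases (16 genes) and all 10674 transcripts tested from the mean over the mice, in each mouse, for RNA and footprints. The receptor median is highest in WT mouse 2 (0.35 in RNA, 0.36 in footprints) and lowest in KO mouse 2 (-0.25 and -0.29).

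Coding length moved with the RNA change as well. Across all transcripts tested, Spearman's rho between RNA fold change and coding length was -0.285, given as a description because all transcripts come from the same 4 mice. Transcripts with a coding sequence as long as those of the tested receptors (2616 to 4446 bases, 1440 transcripts) had a median RNA fold change of -0.04, against 0.04 for all transcripts and -0.41 for the receptors. The median coding length was 2762 bases in receptors and 2669 bases in scaffolds and kinases. The part of length in the receptor result was not tested.

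Translational efficiency was measured as the footprint change relative to the RNA change. None of the 43 members was called by limma with Benjamini-Hochberg adjustment (0% of all transcripts were called), nor in the fit with mouse as a block. At an unadjusted p under 0.05, 0 members were lower and 2 were higher, Grin2c (0.73, SE 0.33) and Grik3 (0.48, SE 0.19), while 297 of all transcripts were lower (2.78%) and 167 higher (1.56%). The median change was 0.03 for receptors, -0.01 for auxiliary proteins and pentraxins, 0.05 for scaffolds and kinases and -0.03 for all transcripts. Standard errors of the members, from the fit without mouse as a block, ran from 0.10 for Camk2a to 0.68 for Grin3a. Gria3 had a change of -0.39 (SE 0.25) and Shank1 one of 0.34 (SE 0.16).

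**Figure D4:**
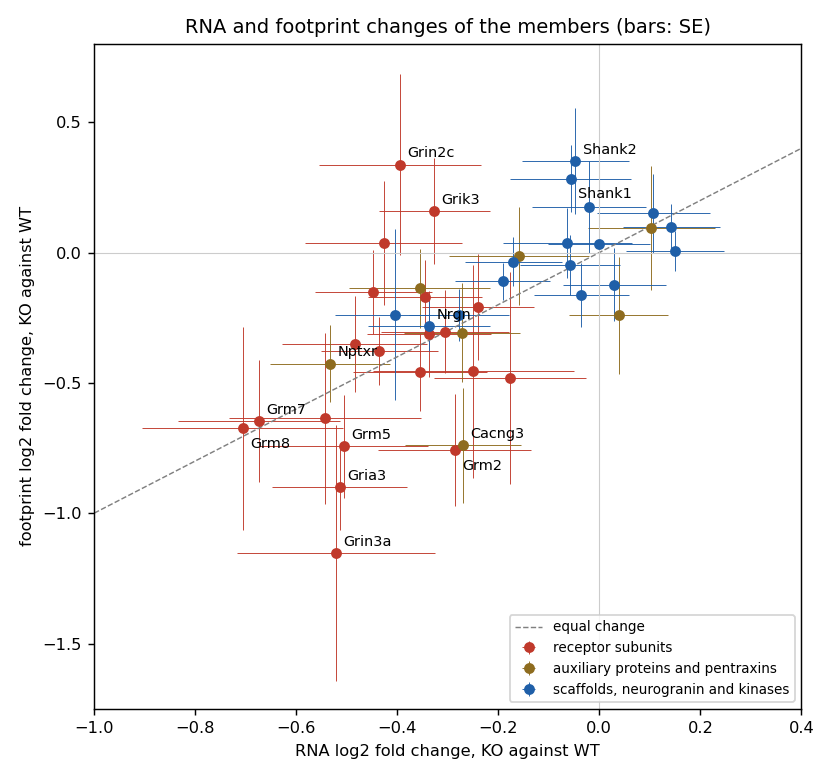
Footprint against RNA log2 fold change of the 43 tested members, KO against WT, with bars for 1 standard error and a dashed line for equal change. Receptors lie left of 0 on the RNA axis and spread from -1.15 (Grin3a) to 0.34 (Grin2c) on the footprint axis. Scaffolds and kinases spread from -0.40 to 0.15 in RNA and from -0.28 to 0.35 in footprints, with medians of -0.05 and -0.01.

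The share of glycine codons was set beside the change in efficiency. For Nrgn the change was 0.05 (SE 0.15) and for Shank1 it was 0.34 (SE 0.16), at glycine shares of 23.1% and 11.2%. The AMPA subunits, rich in GGA, had changes of -0.10 (Gria1), 0.00 (Gria2), -0.39 (Gria3) and 0.13 (Gria4), so they went both ways. Over the 43 members Spearman's rho with the efficiency change was 0.207 for all glycine codons and -0.011 for GGA, as a description over genes from the same 4 mice. The authors corrected the footprints for codons with stalled ribosomes before deposit, which could reduce a difference at such codons.

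Levels in WT cortex ranged widely within each group of members, and the groups overlapped. Per kilobase of transcript, RNA was highest in Nrgn (24837, mean of the 2 WT mice), Camk2a (6165) and Dlg4 (3570) and lowest in Grin2d (22.2). The receptor median was 145, the median of scaffolds and kinases 748, and that of all transcripts tested 143. AMPA subunit RNA per kilobase in WT mice 1 and 2 was 583 and 755 for Gria1, 480 and 647 for Gria2 and 423 and 574 for Gria3. Across the 2 mice the range of Gria2 overlapped those of Gria1 and Gria3, which did not overlap each other. Within each WT mouse the order from the highest was Gria1, Gria2, Gria3 and Gria4, the last at 204 and 285. Footprints per kilobase of coding sequence gave another order, with 128 and 199 for Gria2 above 82.7 and 104 for Gria3, 68.3 and 82.1 for Gria1 and 28.9 and 35.5 for Gria4. None of these ranges overlapped, and those of Gria1 and Gria3 lay closest to each other.

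Footprints relative to RNA, both per kilobase, were low in this set. The ratio was below the median of all transcripts (0.331) in 40 of the 45 genes, with medians of 0.154 in receptors, 0.244 in auxiliary proteins and pentraxins and 0.146 in scaffolds and kinases in WT. It was lowest in Shank1, at 0.0270 and 0.0279 in WT and 0.0308 and 0.0392 in KO. In WT it was highest in Grm2, at 0.595 and 0.743. In KO, Grm2 was at 0.516 and 0.440, and Nptx2, at 0.544 and 0.602, was highest. Grin1, at 0.322 and 0.415, stood well above its partners Grin2a (0.0782 and 0.0957) and Grin2b (0.107 and 0.105) in the WT mice. The ratio has no absolute unit, since each library kind was scaled on its own, and it depends on the annotated transcript length, which is 24060 bases for Grin2b against 4238 for Grin1.

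**Figure D5:**
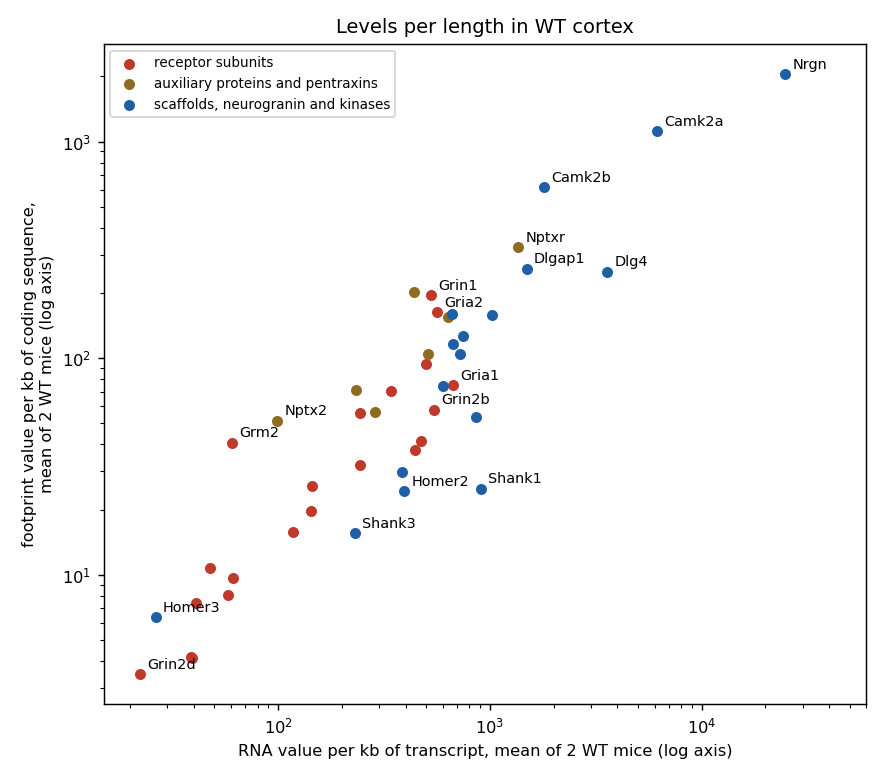
Footprint value per kilobase of coding sequence against RNA value per kilobase of transcript for the 45 genes found, each the mean of 2 WT mice, on log axes. Nrgn, Camk2a and Camk2b lie at the top right, Grin2d lies at the bottom left, and Shank1 has few footprints for its RNA (908.8 per kilobase).

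Beyond the members, 62 other postsynaptic genes (adhesion proteins, signalling enzymes, further receptors and scaffold partners) were listed, 60 were found and 57 were tested. Their median RNA fold change was -0.15, with 4 genes called lower and 0 higher (1.65% and 1.5% of all transcripts). Their median footprint fold change was -0.13, with 2 genes called lower and 0 higher (0.384% and 0.206% of all transcripts). At an unadjusted p under 0.05, 19 were lower and 3 higher in RNA (9.34% and 11.9% of all transcripts). In footprints 12 were lower and 2 higher (6.89% and 5.89% of all transcripts). In RNA, Nlgn3 (neuroligin) fell by 0.60 and Shisa7 (a receptor partner of the Shisa family) by 0.57 on the log2 scale. Nlgn3 RNA was 1207 and 1526 in WT and 915 and 876 in KO, and Shisa7 RNA was 572 and 632 in WT and 423 and 388 in KO, both without overlap. Camk4, a calmodulin-dependent kinase of the nucleus, fell in footprints by 0.69 on the log2 scale. For these 57 genes the groups were apart with KO lower in 30 in RNA (21.6% of all transcripts) and in 21 in footprints (19.8% of all transcripts).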

How the data were processed

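Riboseq and RNA libraries from cortex of 2 WT and 2 KO mice were analysed (4 of 103 samples, 8 columns). The series' tRNA tables were not used here. The submitters' processing notes name Bowtie2 2.4.2, SAMtools 1.11, cutadapt 3.1 and UMI-tools 1.1.1, and reads were aligned to the longest coding transcript of each gene in Ensembl release 96. The deposited signal is the RNA count after median scaling, and the footprint count after a correction for codons with stalled ribosomes and median scaling (Ribolog). The RNA values of each mouse were whole multiples of 1 step, taken as 1 read.

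Transcripts were matched by identifier to GENCODE vM21 (12588 of 12719). Those with a mean footprint value of 10 or more (10674) were tested on log2(value + 1), which understates changes of low genes, with limma 3.58.1 (trend, no covariate) under R 4.3.3. The threshold was 0.05 after Benjamini-Hochberg adjustment over all of them. Efficiency was tested over the 8 columns as the term where library kind and genotype interact. That fit treated the RNA and footprint libraries of a mouse as independent, and mouse entered as a block only in an alternative. The p-values for RNA and footprints rest on the spread between 2 mice per genotype, which limma moderates toward a trend over all transcripts tested. Those for efficiency do not separate variation that the libraries of a mouse share. Scripts were tested on simulated data.

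Members and lists were chosen with earlier results of these data known. Named genes were the members called in a comparison, the 3 largest rises and falls of each, a set of 12 genes and up to 4 called genes of each other list, and further members were described to cover each family. Some called genes of the other lists are not reported here. Alternatives were pseudocounts of 0.5 and 5, no filter, a mean footprint of 50, scaling to the column sum, quantile normalization, each mouse left out, a replicate block, mouse as a block and, added after the data were seen, limma voom and a crossed block. Tables and figures were made with Python 3.11.15, numpy 2.4.6, pandas 2.3.3 and matplotlib 3.10.9.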

Additional observations from a re-analysis of the deposited data

How the results depend on the processing

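Without the filter on low values, no median of a group of members changed direction, and neither pseudocount moved a count of calls by over 1.5 times. Over all transcripts, RNA calls (176 lower, 160 higher) were 117 lower at a mean footprint of 50 or more, and footprint calls (41 and 22) were 11 and 14 there, with 0 members. Scaling to the column sum and quantile normalization each left 1 member lower in RNA, and voom gave 4. The efficiency median of auxiliary proteins and pentraxins was 0.032 after scaling to the column sum. With each mouse left out in turn, the lone mouse of a genotype was assumed to vary like the other pair. RNA calls then ran from 15 to 258 lower and 35 to 256 higher, with 0 to 11 members lower, and footprint calls from 12 to 382 lower and 5 to 166 higher, with 0 to 11 members lower and 0 to 1 higher. Median RNA changes ran from -0.53 to -0.24 for receptors, -0.37 to -0.11 for auxiliary proteins and pentraxins and -0.10 to -0.041 for scaffolds and kinases. Median footprint changes of the last 2 groups ran from -0.38 to -0.041 and from -0.055 to 0.054, and their efficiency medians from -0.044 to 0.0084 and from -0.0099 to 0.15. The cause was not tested.

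Single values, not called in the report, that changed sign with a mouse left out had these ranges. In RNA they were Homer1 (-0.038 to 0.25), Shank1 (-0.25 to 0.13), Shank2 (-0.17 to 0.075) and Shank3 (-0.16 to 0.11). In footprints they were Camk2b (-0.032 to 0.043), Dlg4 (-0.093 to 0.024), Dlgap1 (-0.011 to 0.21), Gria2 (-0.62 to 0.014), Grik2 (-0.16 to 0.23), Grin1 (-0.45 to 0.11), Grin2a (-0.41 to 0.11) and Homer1 (-0.026 to 0.33). In efficiency they were Gria2 (-0.10 to 0.11), Grik4 (-0.39 to 0.20), Grin1 (-0.0057 to 0.36), Grm7 (-0.24 to 0.29), Grm8 (-0.34 to 0.40), Nptxr (-0.046 to 0.26) and Nrgn (-0.13 to 0.23). Quantile normalization turned Dlg4 footprints (0.0013) and Dlgap1 efficiency (0.035), and a pseudocount of 5 turned Grik4 efficiency (0.0026).

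The mouse numbers did not pair the samples: same-numbered mice had correlated deviations of -0.109 in RNA and -0.149 in footprints. With the replicate block, 2 transcripts were lower and 4 higher in RNA and 1 lower and 2 higher in footprints, with 0 members. With the crossed replicate block, chosen after the data were seen, 553 were lower and 494 higher in RNA (15 members lower) and 298 lower and 136 higher in footprints (8 members lower). The unknown footprint depth limits the genes with the lowest values, such as Grin2d, Grin2c and Grm4.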
